A study of Homo sapiens with 3 samples.

Results

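miR-9 was examined in small RNA libraries of MV4-11, a human acute myeloid leukemia cell line. It was taken as every row that miRBase names hsa-miR-9-5p or hsa-miR-9-3p and as the 3 hairpins hsa-mir-9-1, hsa-mir-9-2 and hsa-mir-9-3. These are 2 of the 783 mature names, 6 of the 851 mature rows and 3 of the 661 hairpins in the deposited tables, and all of them had counts in all 3 libraries. The labels give a single group, the line described as FLT3-ITD+ with genotype WT, transduced with an EV (empty vector) lentiviral CRISPR-Cas9 construct and grown for 2 weeks, with 3 replicate cultures. Every library therefore carried Cas9 and the lentiviral vector, and there was no untransduced or treated group. The study's text describes MV4-11 as positive for the fusion MLL-AF4, in which MLL is the older name of KMT2A. The fusion cannot be read from small RNA counts, and with 1 line there is no leukemia without it to compare.

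Hairpin precursors are cut to a duplex of a 5p and a 3p strand, and usually 1 of the strands is kept in the Argonaute complex while the other is degraded. Bases 2 to 8 of the kept strand, its seed, pair with target mRNAs. miR-9 is best known from the developing brain, where it acts in neural progenitors and on regulators of neural genes such as REST and NR2E1. It has also been reported as a direct target of KMT2A fusion proteins in leukemia, with RHOH and RYBP among its reported targets there. It is made from 3 loci on different chromosomes whose mature strands are the same.

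The mature sequences are shown because the arm comparison turns on them, with the seed in capitals (RefSeq, GRCh38.p14, where both arms and all 3 hairpins were found).
hsa-miR-9-5p: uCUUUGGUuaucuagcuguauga
hsa-miR-9-3p: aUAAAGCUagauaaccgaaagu
The 5p strand has 23 bases and the 3p strand 22. None of the other names among 2370 human mature names in the table has the seed of either arm, so no other human miRNA there shares either seed.

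The hairpins are shown because they are the only place where the copies differ, with both mature arms in capitals and the loop and flanks in lower case.
hsa-mir-9-1: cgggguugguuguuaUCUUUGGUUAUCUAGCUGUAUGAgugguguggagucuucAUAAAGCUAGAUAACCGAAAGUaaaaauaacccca
hsa-mir-9-2: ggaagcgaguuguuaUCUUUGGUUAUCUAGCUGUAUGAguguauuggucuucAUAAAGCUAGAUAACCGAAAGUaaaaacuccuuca
hsa-mir-9-3: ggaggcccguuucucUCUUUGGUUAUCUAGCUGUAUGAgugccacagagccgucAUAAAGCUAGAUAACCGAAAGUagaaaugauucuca
Both arms are identical in the 3 hairpins, so a read of an arm alone cannot tell which locus it came from. The loops between the arms have 16, 14 and 16 bases in hsa-mir-9-1, hsa-mir-9-2 and hsa-mir-9-3. Aligned end to end, hsa-mir-9-1 and hsa-mir-9-2 share 83.1% of positions, hsa-mir-9-1 and hsa-mir-9-3 share 77.8%, and hsa-mir-9-2 and hsa-mir-9-3 share 79.1%.

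The loci lie in long host transcripts on the same strand (GRCh38). MIR9-1 lies on the minus strand of chromosome 1 from 156420341 to 156420429, in an intron of all 15 transcripts of C1orf61 (MIR9-1HG in RefSeq) that span it in GENCODE 29. MIR9-2 lies on the minus strand of chromosome 5 from 88666853 to 88666939 in LINC00461 (MIR9-2HG in RefSeq), within an exon of 5 of the 10 spanning transcripts and an intron of the others. MIR9-3 lies on the plus strand of chromosome 15 from 89368017 to 89368106, in an intron of all 3 spanning transcripts of MIR9-3HG. None of the host transcripts is measured in small RNA libraries.

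Libraries held 10991953 to 12694823 counts on mature rows. Replicate 1 stood apart from the other libraries in levels scaled by library total. Among the 163 mature names with at least 1000 counts in every library, its median log2 ratio to replicates 2 and 3 was -0.43 in CPM. CPM is the count scaled to a library total of 1000000. That median depended on the scaling, at 0.15 with TMM factors and 0.09 with DESeq2 size factors. The most abundant name, miR-21-5p, had 385425, 268403 and 202144 CPM in replicates 1, 2 and 3. Its part in the median ratio was not tested. Of the white blood cell markers miR-223-3p, miR-142-3p, miR-142-5p, miR-155-5p, miR-146a-5p, miR-150-5p and miR-181a-5p, 7 of 7 were listed, with summed levels of 35438, 59386 and 61159 CPM in replicates 1, 2 and 3. Of 8 epithelial, muscle and liver markers 5 were listed, with summed levels of 190, 256 and 260 CPM.

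miR-9-5p was an abundant miRNA of these cells and miR-9-3p a much rarer one. The 3 rows of miR-9-5p together held 88186 counts in replicate 1, 90286 in replicate 2 and 85725 in replicate 3. As a level that is 6947, 8214 and 7338 CPM, or 0.750% ± 0.0649 (SD, n = 3) of all mature counts. In CPM the libraries are close to each other, and the mean of 7499.5 CPM ranked 26 of 783. The closeness depends on the scaling, since TMM factors gave 9071, 7507 and 6148 in replicates 1, 2 and 3. The rank of miR-9-5p within a library was 21, 24 and 30. The Wilson 95% intervals of the levels, which cover counting error only, were 6901 to 6992, 8161 to 8267 and 7289 to 7387 CPM and did not overlap. The libraries are of bulk RNA, so a level shared by all cells and a higher level in some of them cannot be told apart.

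The 3 rows of miR-9-3p held 1177, 2465 and 3113 counts in replicates 1, 2 and 3. Its levels were 92.7, 224 and 266 CPM, with a mean of 194 ± 90.6 (SD, n = 3), which ranked 139 of 783. Replicate 1 was less than either of the others, and its interval of 87.6 to 98.2 CPM was far below that of replicate 2, 216 to 233. In the authors' length-scaled unit, FPKM, the mean was 340814 ± 29486 for miR-9-5p and 9259 ± 4314 for miR-9-3p (SD, n = 3), with ranks of 28 and 140.

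**Figure D1:**
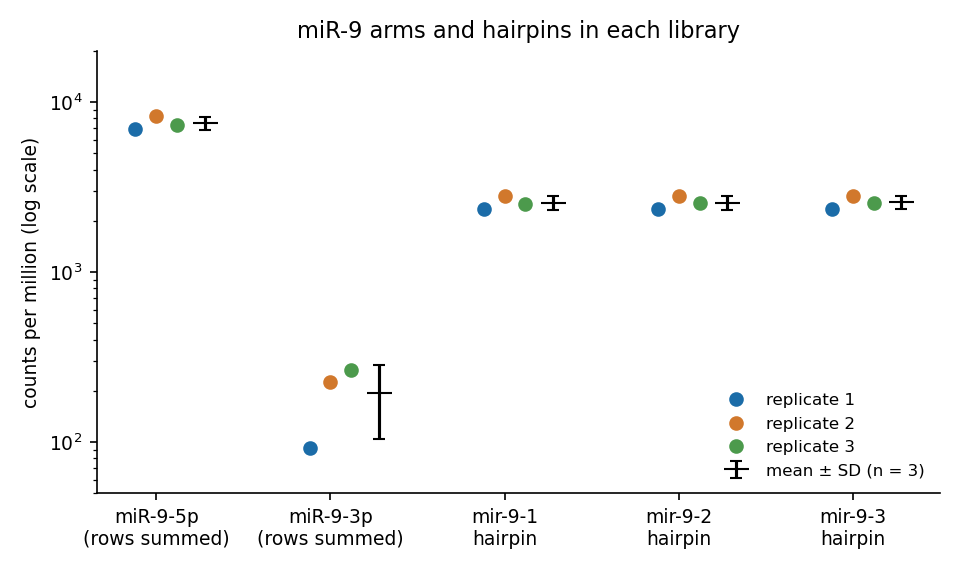
Levels of the miR-9 arms (rows of a name summed) and of the 3 hairpins in CPM on a log axis; points are libraries, bars the mean and SD of 3. miR-9-5p lies between 6947 and 8214 CPM, miR-9-3p between 92.7 and 266 CPM with replicate 1 lowest, and the hairpins lie on top of each other.

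To place miR-9-5p among the other miRNAs, each of the other 782 mature names was compared with it within libraries by edgeR's quasi-likelihood test. Calls required a log2 difference of 1 or more and p under 0.05 after Benjamini-Hochberg adjustment over all names. Of those tested, 15 names were called above miR-9-5p (1.92%) and 744 below it (95.1%), or 97.1% in either direction. The 23 names that were not called ranked from 16 to 39. The names most like it in level were taken by the root mean square difference of log2 CPM over the 3 libraries, so that a name had to be near in each library. miR-101-3p, which targets EZH2, was the closest by this measure (0.0567), with 7286, 7835 and 7418 CPM in replicates 1, 2 and 3. Its difference from miR-9-5p was 0.01 on the log2 scale, with a 95% interval from -0.53 to 0.55. By the same measure miR-378a-3p followed with 7296 ± 854 CPM, miR-222-3p with 7069 ± 1424, miR-148b-3p with 6489 ± 828 and miR-30e-5p with 9170 ± 647 (SD, n = 3). None of their differences from miR-9-5p passed the test (edgeR adjusted p from 0.253 to 0.982). Names chosen as nearest could not reach the required log2 difference of 1, so the calls do not bear on their order. These 6 miRNAs were not tested against each other. In every library miR-30e-5p was above miR-9-5p and miR-148b-3p was below it.

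For miR-9-3p, 109 names were called above (13.9%) and 603 below (77.1%), or 91% in either direction, and the 70 others ranked from 110 to 185. Next to it in mean level were miR-181a-2-3p, with 213, 187 and 192 CPM in replicates 1, 2 and 3, and miR-378c, with 206, 183 and 190 CPM, both highest in replicate 1, where miR-9-3p was lowest. By the root mean square difference over libraries the nearest was miR-126-5p with 101, 214 and 224 CPM in replicates 1, 2 and 3. It is the minor strand of a miRNA of endothelial and blood stem cells. It differed from miR-9-3p by -0.07 on the log2 scale (95% interval -0.78 to 0.65). miR-421, miR-503-5p, miR-18a-3p and miR-378a-5p were the next nearest, with means from 159 to 220 CPM. Because the measure compares library by library, these 5 names share the order of libraries of miR-9-3p by the way they were chosen.

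**Figure D2:**
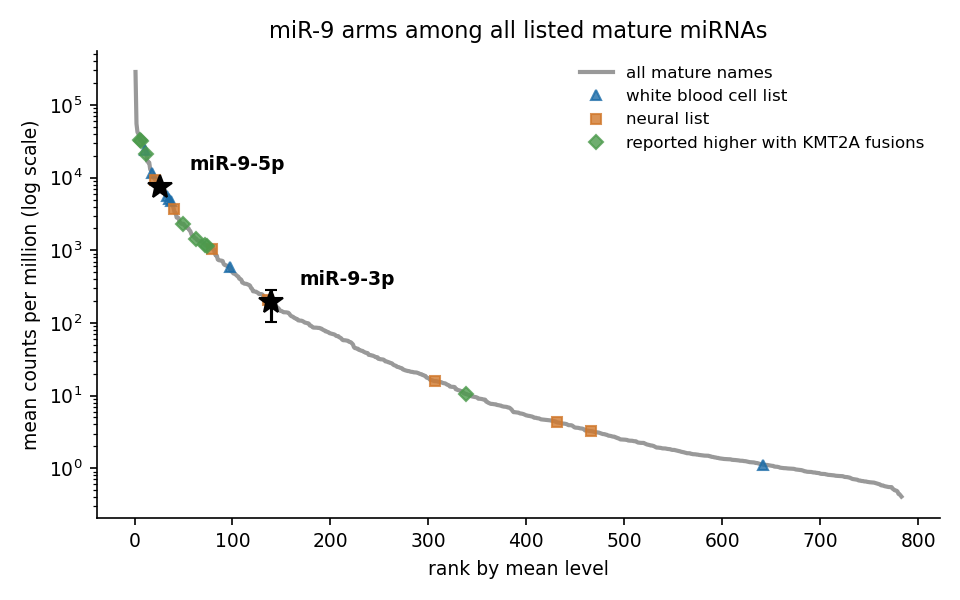
Mean CPM (log axis) of all 783 mature names against their rank, with the miR-9 arms as stars with the SD of 3 libraries and the members of 3 lists as symbols. miR-9-5p at rank 26 lies among the higher white blood cell miRNAs and miR-9-3p at rank 139 lies further down the curve.

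Lists of miRNAs were set beside miR-9-5p to describe its level by context. Of the 7 white blood cell miRNAs, 1 was called above miR-9-5p, 2 below, and 4 were not called, beside 1.92% above and 95.1% below over all names. The highest was miR-155-5p, which promotes inflammatory and leukemic growth, with 24225 ± 2740 CPM (SD, n = 3) and a log2 difference of 1.69 (edgeR adjusted p = 0.000111). The nearest above and below were the strands of miR-142, a miRNA of blood lineages. miR-142-3p had 4602, 14876 and 15429 CPM in replicates 1, 2 and 3, below miR-9-5p in the first of these and above it in the others. miR-142-5p had 3136, 6753 and 6735 CPM and was below miR-9-5p in every library. Neither difference passed (edgeR adjusted p = 0.242 and 0.110). The 2 called below were miR-146a-5p and miR-150-5p, the latter at 1.12 CPM. miR-223-3p, a miRNA of myeloid cells, was not called at 1925, 5874 and 6750 CPM, and without replicate 3 it was called below (-1.17, edgeR adjusted p = 0.0152). The median log2 difference of the list from miR-9-5p was -0.55, against -10.39 over all names.

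Of a list of 12 other miRNAs of neural cells, 7 had a row. Of these, 6 were called below miR-9-5p and 1 was not called. Over all names 95.1% were called below, so these counts are no result about neural miRNAs. The highest was miR-7-5p, a miRNA of neurons and endocrine cells, with 12258, 7857 and 8056 CPM in replicates 1, 2 and 3. It was above miR-9-5p in replicates 1 and 3 and below it in replicate 2, and the difference of 0.30 on the log2 scale did not pass (edgeR adjusted p = 0.310). miR-128-3p, which is enriched in brain, was next with 3747 ± 950 CPM (SD, n = 3), a log2 difference of -1.03 (edgeR adjusted p = 0.0052). It was under the required difference of 1 without replicate 2 (-0.86), without replicate 3 (-0.94) and in the limma test on FPKM (-0.89). miR-124-3p, the most abundant miRNA of mature neurons, had 405, 1134 and 1632 CPM in replicates 1, 2 and 3. The median of the 7 was 210.0 CPM. The neural list summed to 17720, 12444 and 13120 CPM in replicates 1, 2 and 3. Most of each sum was miR-7-5p and miR-128-3p, which were highest in replicate 1, while miR-124-3p, miR-153-3p and miR-219a-5p were lowest there. The rarer miR-129-5p was also highest in replicate 1, and miR-132-3p was highest in replicate 2. All 5 of the listed epithelial, muscle and liver miRNAs were called below miR-9-5p, as were 95.1% of all names, the highest being miR-200c-3p at 140 ± 42.3 CPM (SD, n = 3).

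Of 8 miRNAs that have been reported as higher in KMT2A-rearranged leukemia or bound by its fusion proteins, 3 were called above miR-9-5p and 5 below, beside 1.92% and 95.1% of all names. All 3 called above belong to the miR-17 to miR-92a cluster, which acts in proliferation. So do all those called below except miR-196b-5p and miR-10a-5p, which are encoded among the HOX genes. Names of a single cluster are not independent, so these counts do not stand for separate miRNAs. Outside the cluster, miR-196b-5p had 1152 ± 645 CPM and miR-10a-5p 10.5 ± 3.90 (SD, n = 3), both called below miR-9-5p. The highest of the list was miR-92a-3p with 27051, 30804 and 39745 CPM in replicates 1, 2 and 3, all above miR-9-5p. Its log2 difference was 2.10 (edgeR adjusted p = 3.63e-05). miR-17-5p was the nearest above, at 5461 CPM in replicate 1, below miR-9-5p, and at 24260 and 34183 CPM in replicates 2 and 3. Its difference of 1.17 (edgeR adjusted p = 0.0393) did not pass without replicate 2 (0.94, adjusted p = 0.103) or without replicate 3 (0.61, adjusted p = 0.217). The limma test on FPKM also did not pass (1.15, adjusted p = 0.0636). The nearest below was miR-19b-3p with 2313 ± 1348 CPM (SD, n = 3). Of 4 miRNAs reported as lower in such leukemias 3 had a row, and all 3 were called below miR-9-5p, the highest being miR-126-3p with 2824 ± 607 CPM (SD, n = 3). These lists come from general knowledge, and their levels in this line say nothing of a change caused by a fusion.

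The deposited counts of miR-9 were almost equal for its 3 loci, whose arms are identical. The counts of hsa-mir-9-1 were 29667, 30988 and 29579 in replicates 1, 2 and 3. Those of hsa-mir-9-2 were 29793, 30753 and 29622, and those of hsa-mir-9-3 were 29906, 31015 and 29638. The highest and lowest copies differed by 239, 262 and 59 counts in replicates 1, 2 and 3. hsa-mir-9-3 was the highest in 3 of 3 libraries by these small margins. The shares were 33.3% ± 0.106 for hsa-mir-9-1, 33.3% ± 0.107 for hsa-mir-9-2 and 33.4% ± 0.0534 for hsa-mir-9-3 (SD, n = 3). The Wilson 95% interval held the equal share of 33.3% in 9 of 9 cases.

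Across all pairs of numbered hairpin copies, 18 of 71 differed in an edgeR quasi-likelihood test at an adjusted p under 0.05 (25.4%), and none of the 3 miR-9 pairs was among them. The differences of the miR-9 pairs ran from -0.01 to 0.00 on the log2 scale. Their 95% intervals all lay between -0.04 and 0.03. The median absolute difference over the 71 pairs was 0.11. Because the arms are identical, counts of arm reads cannot tell the loci apart. The shares and this test therefore do not measure the output of each locus. How arm reads were divided between loci is not given in the sources used here, and its part in the even split was not tested.

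The rows of each arm, which have the same sequence, also had similar counts. Each of the 3 mature rows of an arm was matched to the hairpin whose count it adds up to. For miR-9-5p, shares ran from 33.1% to 33.5%, and 9 of 9 intervals held the equal share. For miR-9-3p, which has fewer counts, the rows of hsa-mir-9-1, hsa-mir-9-2 and hsa-mir-9-3 held 354, 424 and 399 counts in replicate 1. They held 803, 858 and 804 in replicate 2 and 1019, 1067 and 1027 in replicate 3. The hsa-mir-9-2 row was the highest in 3 of 3 libraries, with shares of 36.0%, 34.8% and 34.3%. The hsa-mir-9-1 row was the lowest in each, with shares of 30.1%, 32.6% and 32.7%. Only the interval of hsa-mir-9-1 in replicate 1, from 27.5% to 32.8%, missed the equal share. None of the 6 pairs of miR-9 rows passed the test (smallest edgeR adjusted p = 0.336), where 10 of 83 pairs of rows of a shared name did (12%). The largest difference among the miR-9 pairs was -0.11 on the log2 scale, for the 3p row of hsa-mir-9-1 minus that of hsa-mir-9-2 (95% interval -0.25 to 0.03). Reads of an arm cannot tell the loci apart, so these row shares and this test do not measure the output of each locus.

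**Figure D3:**
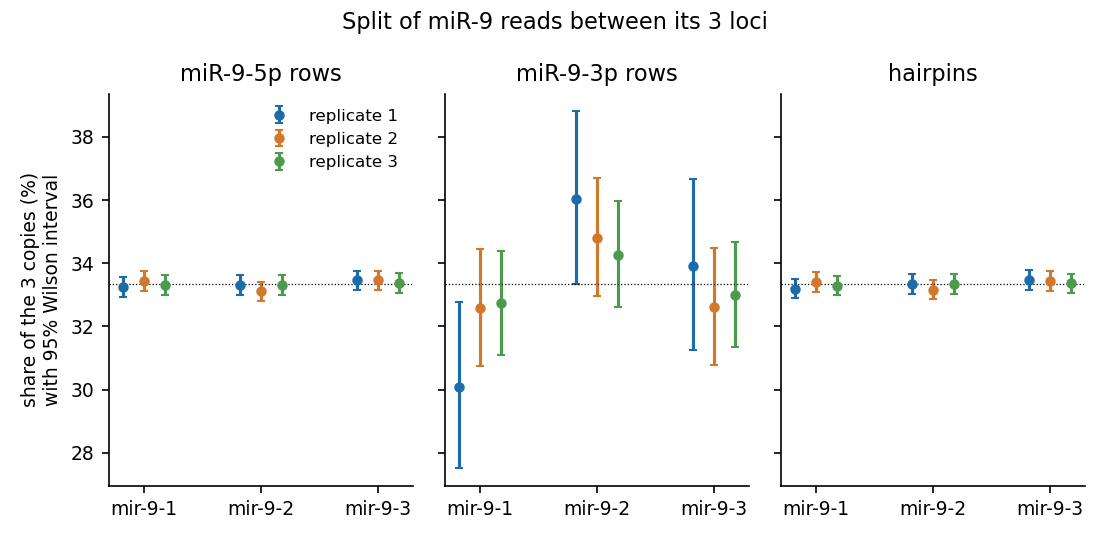
Share of the counts listed for each locus among the 3 copies, which does not measure the output of a locus. Panels hold the rows of miR-9-5p, the rows of miR-9-3p and the hairpin counts. Points are libraries, bars Wilson 95% intervals and the dotted line an equal share of 33.3%. Shares of miR-9-5p rows and hairpins sit within 33.1% and 33.5%, and those of miR-9-3p rows spread from 30.1% to 36.0%.

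Reads that were counted on a hairpin but on neither arm could carry the sequence of the loop or flanks. The counts do not show whether reads counted on an arm ran past its ends. Arm rows had been matched to each hairpin by the smallest difference from its count, so the excess at each locus rests on that match. The next best match was off by 54, 119 and 63 counts for hsa-mir-9-1, hsa-mir-9-2 and hsa-mir-9-3. For hsa-mir-9-1 and hsa-mir-9-2 the hairpin count then equalled the sum of its 2 arm rows in all 3 libraries. For hsa-mir-9-3 it was larger by 3, 5 and 1 counts in replicates 1, 2 and 3. These 9 counts were the sole excess at any miR-9 locus and made up 0.00332% of miR-9 hairpin counts, where the excess of all hairpins over all mature rows was 0.261%. The overall figure also holds mature features that are not listed. A count of 0 allows up to 0.00332% of the 90234 counts of hsa-mir-9-1 and 0.00333% of the 90168 counts of hsa-mir-9-2. So few reads do not order the 3 loci.

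The 5p strand of miR-9 far outnumbered the 3p strand in every library. The ratio of 5p to 3p counts was 74.9 in replicate 1, 36.6 in replicate 2 and 27.5 in replicate 3. The share of 3p among the counts of both arms was 1.32% (Wilson 95% interval 1.24% to 1.39%), 2.66% (2.56% to 2.76%) and 3.50% (3.39% to 3.63%). These intervals did not overlap, so the libraries differed beyond counting error. In the edgeR quasi-likelihood fit over all 195 arm pairs the log2 ratio was 5.40 ± 0.38 (SE, adjusted p = 5.96e-05), which is 42.1-fold with a 95% interval from 21.8-fold to 81.5-fold.

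Most hairpins favored an arm, since 79 of 195 pairs were called toward 5p (40.5%) and 81 toward 3p (41.5%), or 82.1% in either direction. miR-9 ranked 29 of 195 toward 5p, and 53 pairs had a larger absolute ratio. The median absolute log2 ratio was 3.17. The SD of the miR-9 log2 ratio between libraries was 0.74, where the median over pairs was 0.52 and 64 pairs had a larger one. Pairs needed only 1 count of each arm in every library, so the SDs of rarely counted pairs include more counting error than that of miR-9. The ratio of miR-9 was most extreme in replicate 1, as it was in 86 of the 176 pairs (48.9%) that favored the same arm in all libraries. Without replicate 1 the log2 ratio of miR-9 was 4.99, and without replicate 3 it was 5.71.

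**Figure D4:**
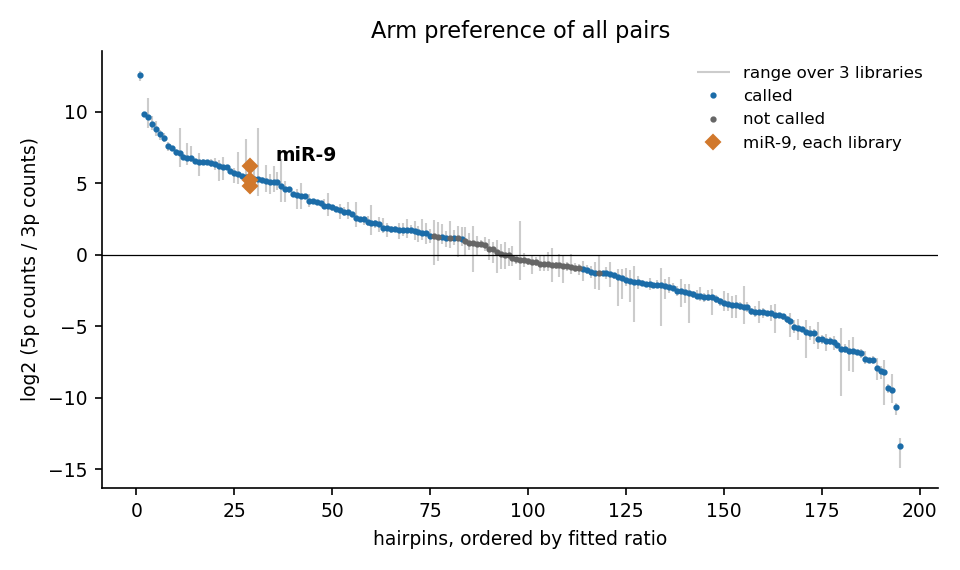
Log2 ratio of 5p to 3p counts for 195 hairpins ordered by the fitted ratio, with grey lines for the range over 3 libraries, blue dots for called pairs and dark dots for pairs not called. miR-9 (diamonds, 1 per library) is at position 29 with a fitted log2 ratio of 5.40 and all 3 libraries far above 0.

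The arms also differed in how they varied between libraries. The coefficient of variation over 3 replicates was 8.65% for miR-9-5p and 46.6% for miR-9-3p in CPM. Among the 163 names with at least 1000 counts in every library the median was 29.1%, with 27 names below miR-9-5p and 135 below miR-9-3p. The place of miR-9-5p depended on the scaling, since its value was 19.3% with TMM factors (68 names lower, median 22.3%) and 16.7% with DESeq2 size factors (57 lower, median 21.7%). That of miR-9-3p was 29.8% (103 lower) and 31.9% (112 lower). Counting alone would give 0.337% and 2.11%. Without replicate 1 the value for miR-9-3p was 12.2%, and without replicate 2 the value for miR-9-5p was 3.88%.

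In replicate 1, the log2 ratio to replicates 2 and 3 was -0.16 for miR-9-5p and -1.40 for miR-9-3p in CPM. The direction for miR-9-5p depended on the scaling of the libraries, since the ratio was 0.42 with TMM factors and 0.36 with DESeq2 size factors. That for miR-9-3p remained negative, at -0.82 and -0.88. The median ratio of the 163 names was -0.43, 0.15 and 0.09 under these scalings. Relative to that median, miR-9-5p was higher by 0.27 and miR-9-3p was at -0.97 on the log2 scale in replicate 1. A scaling moves every name of a library alike, so this difference is the same under each by construction. With 1 library on a side these differences have no test.

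**Figure D5:**
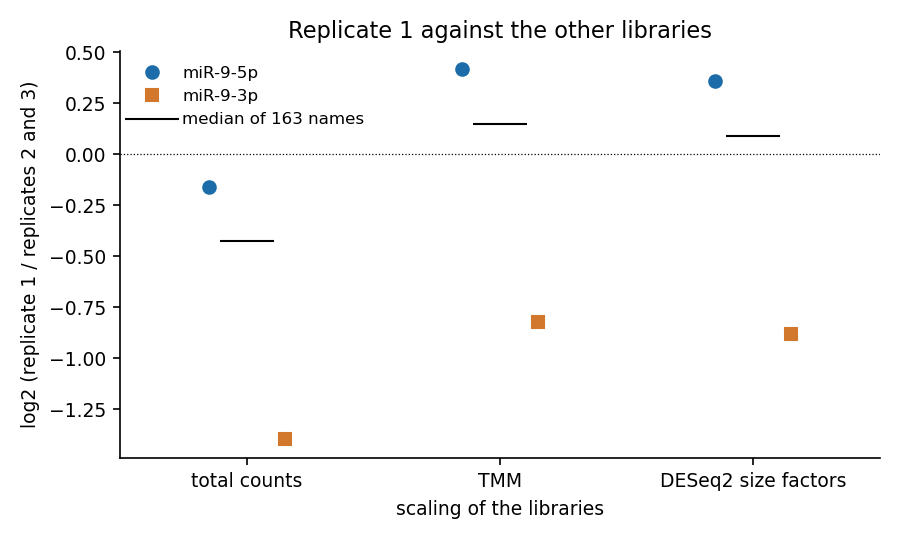
Log2 ratio of replicate 1 to the mean of replicates 2 and 3 for miR-9-5p (circles), miR-9-3p (squares) and the median of 163 well-counted names (bars) under 3 scalings of the libraries. miR-9-5p lies above the median and miR-9-3p below it by the same distance in each, by construction, and the sign of miR-9-5p changes with the scaling.

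The names whose pattern over the 3 libraries was most like that of miR-9-5p were sought among the 163 by the root mean square difference of log2 CPM after centering each name on its mean. The closest were miR-132-3p (0.0469), miR-140-3p (0.0495), miR-340-3p (0.0515), miR-30e-5p (0.0538) and miR-101-3p (0.0564). miR-132-3p, which is induced by neuronal activity, had 199, 235 and 196 CPM in replicates 1, 2 and 3 with a log2 difference of -5.16 from miR-9-5p. miR-140-3p, known from cartilage, had 5104, 5891 and 5712 CPM. Likeness over 3 libraries, by which these names were chosen, is a description of those libraries and says nothing of shared control.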

How the data were processed

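Small RNA sequencing was measured in 3 replicate cultures of MV4-11. The counts are whole-number reads per miRNA feature as deposited by the authors, against miRBase 21 mature rows and hairpins. The FPKM values were also made by the authors, from these counts scaled by library total and feature length. The submitters' processing notes name Novoalign 2.08.03 and the builds hg19 and mm10 with no role given. Adapter trimming and the treatment of reads that match several loci are not given in the sources used here. Reads carry no molecular identifiers and ligation favors some ends, so counts include PCR copies, levels of different miRNAs are not molar, and intervals cover counting error only. The labels do not say how far the cultures were independent, so p-values measure the spread between these libraries.

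Rows of 1 mature name were summed, and miR-1-3p of the marker list was read from the row that miRBase 21 names hsa-miR-1. Tests were edgeR 4.0.16 quasi-likelihood fits in R 4.3.3 on counts, with library as block and table totals as library sizes, across all pairs, names or copies. The arm fit used an abundance trend in the dispersion; the other fits used none, because the trend could not be fitted, which was decided once the values were known. All names tested against an arm share that arm's counts. Alternatives used DESeq2 1.42.0, limma 3.58.1 on log2 FPKM with a pseudocount of 1 or 10, a minimum of 10 counts, no block, other scalings and each replicate left out. Of the edgeR fits, only the one with an abundance trend was tried on simulated data, where both sides were drawn independently. Named miRNAs are the members and the 5 names nearest to each arm in level or to miR-9-5p in pattern. From each list they are the highest member and those next to miR-9-5p. Added after their values were seen were miR-10a-5p, miR-21-5p, miR-124-3p, miR-129-5p, miR-146a-5p, miR-150-5p, miR-153-3p, miR-181a-2-3p, miR-196b-5p, miR-219a-5p, miR-223-3p and miR-378c. Members and lists were chosen with earlier results of these data known. Sequences are from RefSeq (GRCh38.p14) and host transcripts from GENCODE 29.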

Additional observations from a re-analysis of the deposited data

How the results depend on the processing

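Of 265 alternative values, 241 were labeled as staying with the reported value and 24 as moved. Staying does not mean unchanged. With a minimum of 10 counts, pairs called toward 3p went from 81 to 57 and names called below miR-9-5p from 744 to 576. Both were labeled as staying, while a hairpin share that went from 33.3% to 33.2% was labeled as moved. No alternative value reversed a called direction or ended a call of miR-9 itself. The arm ratio ran from 4.99 to 5.71 on the log2 scale when a replicate was left out. Taking the highest single row in place of the sum gave 2507 CPM for miR-9-5p and 67.6 CPM for miR-9-3p, and ranking rows separately gave ranks of 55 and 227. Scaled to a summed FPKM of 1000000, hairpin levels were 2236, 2286 and 2219 for hsa-mir-9-1, hsa-mir-9-2 and hsa-mir-9-3, and their FPKM shares were 33.2%, 33.9% and 32.9%, since FPKM divides by hairpin length. Called pairs of rows fell to 1 and called pairs of hairpin copies to 3 with no library block. With a replicate left out they ranged from 2 to 10 and from 8 to 20, the lowest without replicate 3 for rows and without replicate 2 for copies. The cause was not tested. The coefficient of variation of miR-9-5p was 19.3% with TMM and 16.7% with DESeq2 size factors, and from 3.88% to 11.8% with a replicate left out. That of miR-9-3p was 29.8% with TMM and from 12.2% to 68.4% with a replicate left out. The log2 ratio of replicate 1 to the others was 0.42 and 0.36 for miR-9-5p and -0.82 and -0.88 for miR-9-3p under TMM and DESeq2 size factors. The comparisons of arms, names and copies were paired within libraries by the library block. No paired analysis between groups was possible because there is a single group.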
